A study of Mus musculus with 26 samples.

Results

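The genes described here are 41 genes of the amino acid stress response in mouse mammary tumour cells, chosen by name from 45318 genes counted: the transcription factor Atf4 with its regulators and stress effectors (11 genes), enzymes of amino acid and one-carbon metabolism (10), amino acid transporters (8), a lipoprotein receptor and a secreted glycoprotein (2) and cytosolic aminoacyl-tRNA synthetases (10). The set is a list of names and no threshold on a measured value chose them, but it was drawn up with earlier results of these data known, and its definition already states that Cebpg, a partner of ATF4 outside the set, falls in KO cells. All 41 were found in the count files, and 40 passed the filter on low counts. The exception was Cbs, which makes cystathionine from homocysteine and serine: it had no read in either control library and at most 0.207 CPM in any library, where CPM is the read count scaled to a common library size.

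Cells that run short of an amino acid, or that collect misfolded protein in the endoplasmic reticulum, phosphorylate the initiation factor eIF2. General translation then slows, while the Atf4 mRNA is translated more efficiently because of upstream reading frames in its leader. ATF4 binds DNA as a dimer, often with a C/EBP protein such as C/EBP gamma, and raises transcription of genes for amino acid synthesis, uptake and charging onto tRNA, together with a set of stress effectors that includes DDIT3 (CHOP), TRIB3 and CHAC1. Tumour cells commonly use this programme to sustain protein synthesis and glutathione production.

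The RNA libraries came from 4T1 cells, a mammary carcinoma line from a BALB/c mouse, grown in DMEM with serum. Both control libraries are labelled wild type, and in the study control cells had received Cas9 with a guide against Renilla luciferase. The 7 knockout (KO) libraries are labelled MaTAR25-/- and come from 2 clones, KO1 (3 libraries) and KO2 (4 libraries), each grown from a single sorted cell after a pair of guides removed the transcription start of the long noncoding RNA gene MaTAR25. The study asked what the loss of this RNA does to the transcriptome, and mapped by ChIRP-seq, a pulldown with antisense DNA probes, where the RNA lies on chromatin in 4T1 cells and in NDL cells from mammary tumours of FVB mice. The labels call the NDL cells primary and give their genotype as MMTV-PyMT, whereas the study names cNeu, a cultured MMTV-Neu-NDL line, for this ChIRP-seq, and which description holds cannot be told here. Because each knockout is 1 clone, a difference between a clone and control cannot be told apart from clonal variation, and nothing in the labels says that the libraries of a group came from separate cultures, so p-values measure the spread between these libraries only.

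The libraries held between 25367211 and 61110585 reads counted to genes. MaTAR25, annotated as 1200007C13Rik, had 35 and 30 reads in the control libraries and 0 to 11 in the KO libraries, 6.2-fold lower in KO (log2 fold change -2.63 ± 0.82 SE, edgeR adjusted p = 0.0561). Of 9 epithelial markers, 8 were tested, Krt5 was at 0 in every library, and their summed level was 5140 to 5324 CPM in control, 6210 to 8124 CPM in KO1 and 2600 to 4989 CPM in KO2. The summed level of 5 immune markers was 3.2 to 4.23 CPM in control, 11.4 to 28.4 CPM in KO1 and 1.9 to 20.4 CPM in KO2, nearly all of it Cd68. The sums of 5 fibroblast markers, with Dcn at 0 throughout, ran from 11.8 to 47.5 CPM over all libraries, and those of 4 endothelial markers reached at most 1.68 CPM. The part of these differences in the results below was not tested.

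ATF4 dimers recognise a composite element, of which TTGCATCA is a common core. The 250 bases before the RefSeq transcription start (GRCm38.p6) could be read for 33 of the 41 genes, and 8 of them (24.2%) held TTGCATCA on either strand, against 248 of 27025 genes in the whole table (0.918%). The genes were chosen by name as ATF4 targets and parts of its response, so these shares describe the choice and are no independent finding. The longer form TGATGNAAT was in 4 of the 33 (12.1%, against 0.91% of all genes), and it overlaps TTGCATCA where its open base is C. The looser TGATGNAA, added after the data had been seen, was in 10 (30.3%, against 3.91% of all genes), and contains the other strand of TTGCATCA. The stretches below are shown because they carry the element in front of 5 genes whose RNA fell in at least 1 clone, and in front of Gars, whose RNA was not called in any comparison. Each is written 5′ to 3′ on the gene's strand, with the match in capitals.
Chac1, chr2:119351009-119351096, plus strand: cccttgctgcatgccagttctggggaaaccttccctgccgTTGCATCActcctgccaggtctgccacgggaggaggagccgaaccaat
Atf3, chr1:191183396-191183483, minus strand: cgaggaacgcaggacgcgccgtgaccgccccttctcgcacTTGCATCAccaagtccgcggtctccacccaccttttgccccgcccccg
Slc7a11, chr3:50443615-50443700, minus strand: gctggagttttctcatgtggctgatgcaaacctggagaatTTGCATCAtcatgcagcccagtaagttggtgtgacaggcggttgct
Vldlr, chr19:27216810-27216837, plus strand: gcagcaatagTTGCATCAgcgctcctag
Asns, chr6:7693215-7693242, minus strand: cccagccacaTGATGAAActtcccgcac
Gars, chr6:55037931-55038000, plus strand: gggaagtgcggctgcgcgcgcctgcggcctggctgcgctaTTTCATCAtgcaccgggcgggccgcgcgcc
The core begins 193 bases before the start in Chac1, 110 in Atf3, 47 in Slc7a11 and 200 in Vldlr. Slc7a11 holds a second copy on the other strand, 66 bases before the start, which stands in lower case in the stretch above. Asns matches only the loosest form, 23 bases before the start, and Gars matches both other forms, the looser one 30 bases before it. The other 4 genes with TTGCATCA were Nupr1, Pycr1, Aars and Tars. In Nupr1, Asns, Vldlr and Aars the match also falls in an annotated exon of the gene. A match is a description of the letters and no evidence of binding.

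In KO cells taken as 1 group, 27 of the 40 tested genes fell and none rose against control, at an adjusted p under 0.1 over all 15023 genes tested (edgeR quasi-likelihood test with Benjamini-Hochberg adjustment). Of all genes tested, 10.7% were called lower and 11.9% higher. At an unadjusted level of 0.05 no gene of the set was higher either, and DESeq2 called 28, all lower. The median log2 fold change of the 40 genes was -1.25, against 0.06 over all genes, and 38 had a value under 0. Every KO library lay below both control libraries for 31 of the 40 genes and above both for none, while 17.6% of all genes tested lay wholly below and 16.9% wholly above. The median difference of the genes from the control mean, on the log2(CPM + 1) scale, was -1.02, -0.72 and -1.32 in the KO1 libraries and -1.55, -1.48, -1.74 and -1.79 in the KO2 libraries, so that every KO2 library stood lower than every KO1 library. With only 2 control libraries the count of calls depends on both. It dropped far more when either was left out than when any KO library was, with every remaining call lower and among the 27. A fit with 1 control library has no spread between controls, and the share of all genes called in it was not computed. The 7 genes called whichever library was left out were Ddit3, Atf3, Eif4ebp1, Ppp1r15a, Cth, Slc1a4 and Iars. In bulk RNA, fewer cells using a gene and less RNA per cell cannot be told apart.

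**Figure D1:**
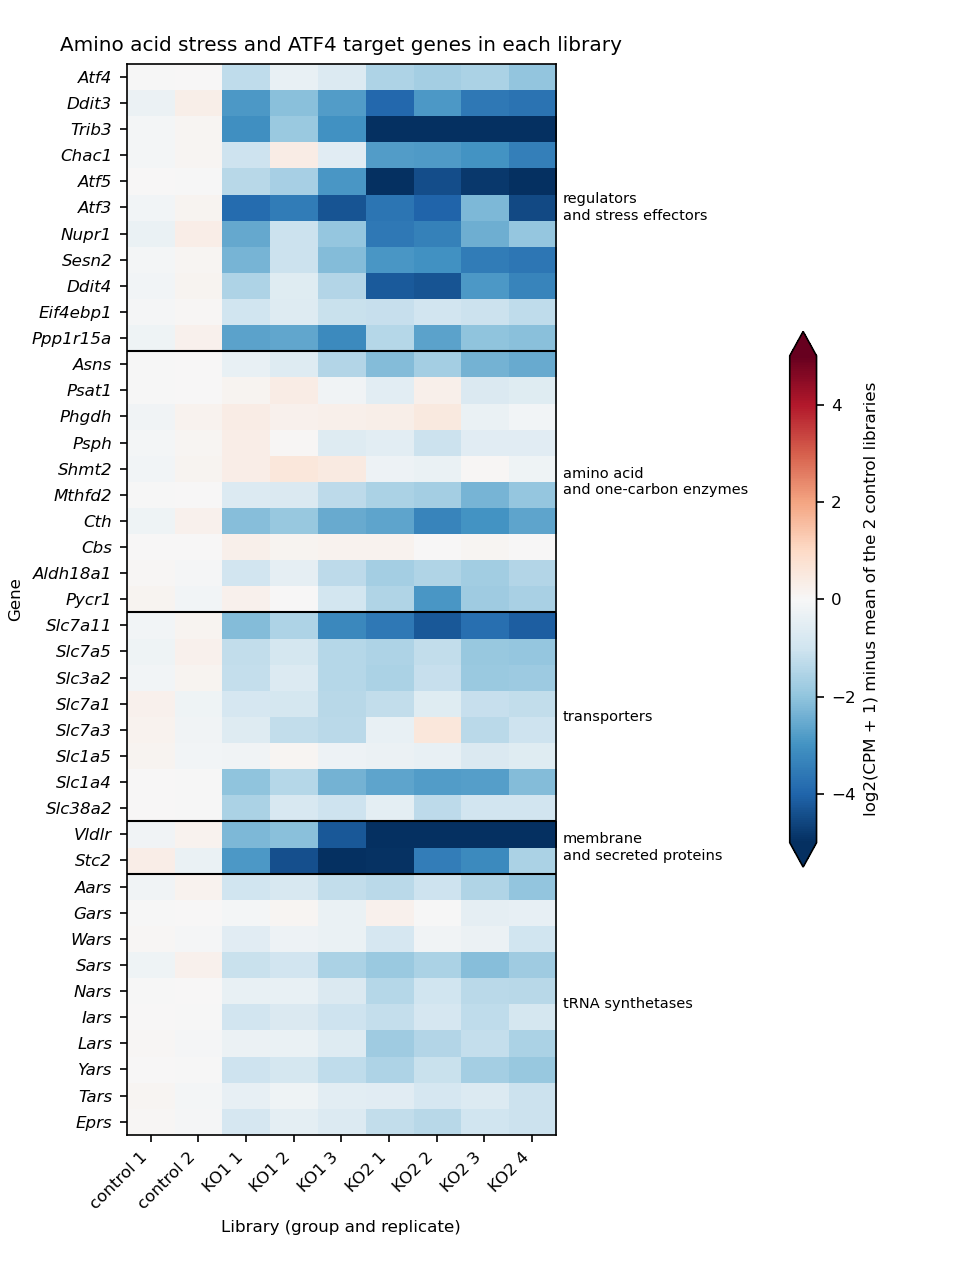
Each row is a gene and each column a library, and the colour gives log2(CPM + 1) minus the mean of the 2 control libraries, with colours held at 5 units either way. Blue fills most of the 7 KO columns, with median differences from -0.72 in KO1 replicate 2 to -1.79 in KO2 replicate 4, while Psat1, Phgdh, Shmt2 and Gars stay pale.

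Among the regulators and stress effectors, 9 of 11 fell in KO. All 11 had values under 0, and their median on the log2 scale was -2.32. Atf4 itself (ENSMUSG00000042406, GRCm38 chr15:80255184-80257541, plus strand) was at 568 and 582 CPM in the control libraries, 238, 446 and 359 CPM in KO1 and 196, 174, 189 and 147 CPM in KO2. All 7 KO libraries lay below both controls, and KO2 below KO1. The pooled change was 2.30-fold (log2 fold change -1.20 ± 0.36 SE, edgeR adjusted p = 0.0491), from 575 ± 10.4 CPM (SD, n = 2) in control to 348 ± 105 (n = 3) in KO1 and 176 ± 21.4 (n = 4) in KO2.

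Ddit3 (ENSMUSG00000025408, GRCm38 chr10:127290774-127296288, plus strand) encodes CHOP, a bZIP factor that ATF4 induces and that promotes cell death under lasting stress. It was at 152 and 233 CPM in the control libraries, 25.1, 43.6 and 26.4 CPM in KO1 and 11.4, 24.6, 15.1 and 13.7 CPM in KO2. The groups did not overlap, and the fall was 8.45-fold (log2 fold change -3.08 ± 0.39 SE, edgeR adjusted p = 0.00181). Other genes share 10.9% of its exon length, Mars on the opposite strand among them, and the counting is not stated to have used strand. Trib3 (ENSMUSG00000032715, GRCm38 chr2:152337422-152344032, minus strand), a pseudokinase that restrains AKT and ATF4, was at 474 and 553 CPM in the control libraries, 60.9, 139 and 61.2 CPM in KO1 and 13.9, 7.92, 14.4 and 8.36 CPM in KO2. It fell 11.8-fold over the pooled KO libraries (log2 fold change -3.56 ± 0.88 SE, edgeR adjusted p = 0.0236), with the highest KO2 library at 14.4 CPM and the lowest KO1 library at 60.9 CPM.

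Chac1 (ENSMUSG00000027313, GRCm38 chr2:119351229-119354381, plus strand), which degrades glutathione, was at 139 and 160 CPM in the control libraries, 71.7, 193 and 99.4 CPM in KO1 and 20.8, 20.3, 18.1 and 12.9 CPM in KO2. KO1 replicate 2 exceeded both controls, and the pooled groups overlapped (log2 fold change -1.26 ± 0.87 SE, edgeR adjusted p = 0.354). In KO2 alone Chac1 fell 8.32-fold (log2 fold change -3.06 ± 0.34 SE, edgeR adjusted p = 0.000872). Sesn2, a leucine sensor that holds mTORC1 in check, was at 65.0 and 75.1 CPM in the control libraries, 13.2, 32.6 and 14.6 CPM in KO1 and 8.45, 7.71, 5.27 and 4.78 CPM in KO2 and fell 5.67-fold (log2 fold change -2.50 ± 0.57 SE, edgeR adjusted p = 0.0167). Ddit4, another inhibitor of mTORC1, was at 1020 and 1230 CPM in the control libraries, 388, 744 and 401 CPM in KO1 and 60.0, 55.9, 152 and 113 CPM in KO2. The KO libraries of Ddit4 all lay below the controls, but their spread between clones was wide and the pooled test was missed (log2 fold change -2.04 ± 0.79 SE, edgeR adjusted p = 0.109), whereas both clones passed separately (log2 fold change -1.14 ± 0.43 SE, edgeR adjusted p = 0.0865 in KO1; log2 fold change -3.56 ± 0.41 SE, edgeR adjusted p = 0.000985 in KO2).

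Atf5, a related bZIP factor whose translation also responds to eIF2 phosphorylation, was at 340 and 337 CPM in the control libraries, 130, 105 and 43.9 CPM in KO1 and 9.54, 14.8, 10.9 and 8.42 CPM in KO2. It fell 7.34-fold (log2 fold change -2.88 ± 0.92 SE, edgeR adjusted p = 0.0610), and KO2 libraries held at most 14.8 CPM. Atf3, a stress-induced repressor, was at 301 and 363 CPM in the control libraries, 21.8, 28.5 and 15.5 CPM in KO1 and 25.6, 19.7, 69.0 and 13.5 CPM in KO2, with KO2 replicate 3 the highest of the KO libraries. It fell 12.0-fold over the pooled KO libraries (log2 fold change -3.58 ± 0.47 SE, edgeR adjusted p = 0.00193), and 15.1-fold in KO1 and 10.4-fold in KO2. Nupr1, a small chromatin-associated stress protein, was at 284 and 450 CPM in the control libraries, 60.1, 168 and 92.5 CPM in KO1 and 28.8, 33.7, 65.7 and 93.9 CPM in KO2 and fell 4.73-fold (log2 fold change -2.24 ± 0.50 SE, edgeR adjusted p = 0.0165).

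Ppp1r15a (GADD34) recruits the phosphatase that reverses eIF2 phosphorylation. It was at 169 and 229 CPM in the control libraries, 29.8, 32.1 and 20.7 CPM in KO1 and 73.5, 30.3, 47.9 and 45.2 CPM in KO2, and fell 4.99-fold (log2 fold change -2.32 ± 0.36 SE, edgeR adjusted p = 0.00371). The KO1 mean (27.5 ± 6.04 CPM, SD, n = 3) lay below the KO2 mean (49.2 ± 17.9 CPM, n = 4), the opposite order to most of the set. Eif4ebp1, the repressor of cap-dependent translation that mTORC1 inactivates, was at 321 and 344 CPM in the control libraries, 166, 212 and 154 CPM in KO1 and 148, 172, 157 and 137 CPM in KO2. Its fall of 2.03-fold was smaller, with the KO libraries close together (log2 fold change -1.02 ± 0.16 SE, edgeR adjusted p = 0.00376).

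**Figure D2:**
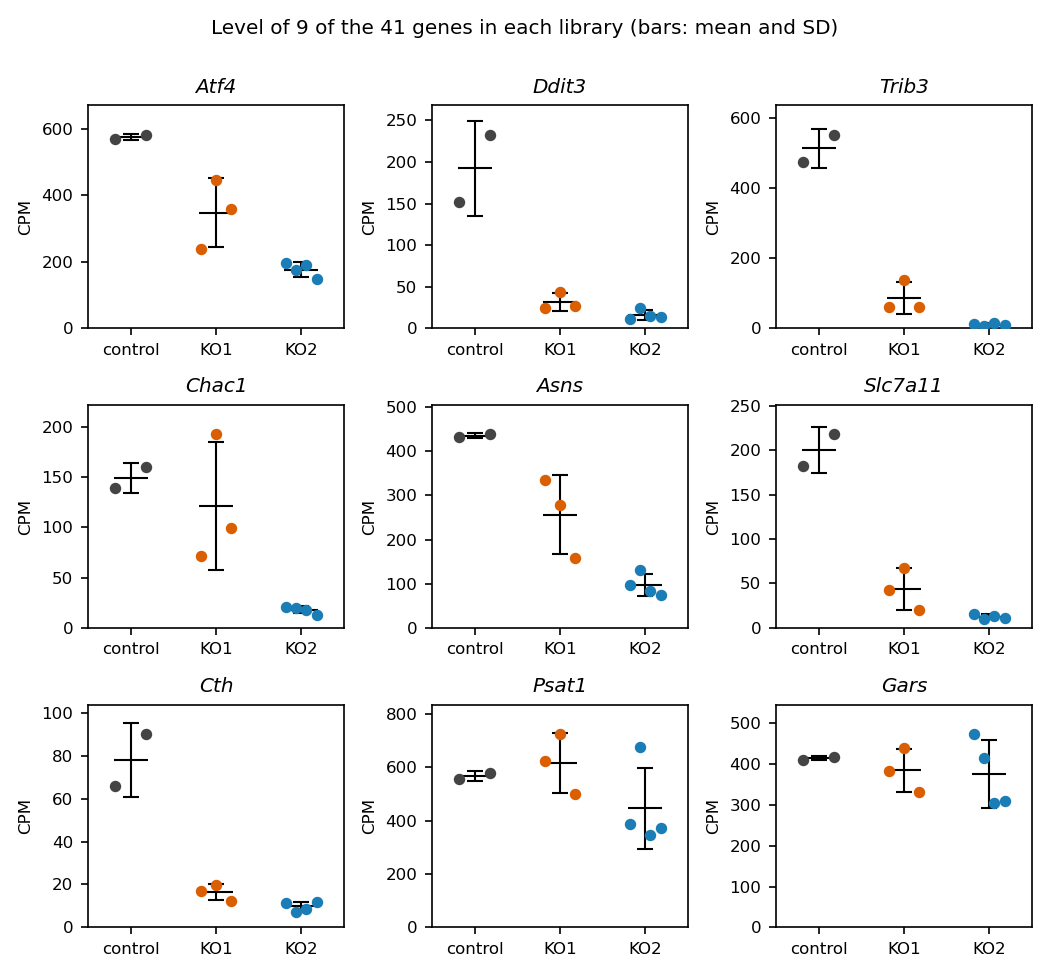
Points are libraries, the horizontal tick and bar the mean and SD of a group, and the vertical axis CPM from 0, for 9 of the 41 genes. Atf4, Ddit3, Trib3, Slc7a11 and Cth have all KO points below both control points, Chac1 has KO1 replicate 2 (193 CPM) above them, and Psat1 and Gars overlap the controls.

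Of 9 enzymes tested, 4 fell in KO, none rose, by the adjusted edgeR test or at an unadjusted level of 0.05, and the median log2 fold change was -0.91. Asns (ENSMUSG00000029752, GRCm38 chr6:7675169-7693254, minus strand), asparagine synthetase, was at 432 and 439 CPM in the control libraries, 334, 278 and 158 CPM in KO1 and 97.2, 132, 83.7 and 75.5 CPM in KO2. The libraries of the 3 groups did not overlap, and the pooled fall was 2.63-fold (log2 fold change -1.40 ± 0.50 SE, edgeR adjusted p = 0.0870). Cth (ENSMUSG00000028179, GRCm38 chr3:157894248-157925077, minus strand), which releases cysteine from cystathionine, was at 65.7 and 90.3 CPM in the control libraries, 16.9, 19.9 and 12.5 CPM in KO1 and 11.6, 6.99, 8.77 and 11.7 CPM in KO2, and its fall of 6.18-fold was the steepest among the enzymes (log2 fold change -2.63 ± 0.31 SE, edgeR adjusted p = 0.00154).

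Mthfd2, a mitochondrial enzyme of the folate cycle, was at 364 and 378 CPM in the control libraries, 232, 226 and 149 CPM in KO1 and 122, 115, 73.4 and 97.6 CPM in KO2 and fell 2.56-fold (log2 fold change -1.36 ± 0.36 SE, edgeR adjusted p = 0.0322). Aldh18a1, which starts proline synthesis from glutamate, was at 348 and 328 CPM in the control libraries, 175, 249 and 134 CPM in KO1 and 104, 118, 101 and 121 CPM in KO2 and fell 2.36-fold (log2 fold change -1.24 ± 0.30 SE, edgeR adjusted p = 0.0205). Both genes were below the controls in all 7 KO libraries. Pycr1, which completes proline synthesis, was at 36.0 and 30.0 CPM in the control libraries, 38.5, 33.7 and 16.7 CPM in KO1 and 11.1, 3.50, 8.98 and 9.99 CPM in KO2. KO1 libraries of Pycr1 spread across the control values and KO2 libraries lay below them. The pooled comparison missed the threshold (log2 fold change -0.91 ± 0.68 SE, edgeR adjusted p = 0.394) and KO2 alone passed (log2 fold change -1.97 ± 0.42 SE, edgeR adjusted p = 0.0115).

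The 3 enzymes of serine synthesis and the serine hydroxymethyltransferase Shmt2 did not pass in the pooled comparison. Their log2 fold changes were 0.18 for Phgdh, which commits 3-phosphoglycerate to serine, -0.13 for Psat1, -0.36 for Psph and 0.11 for Shmt2, with adjusted p between 0.463 and 0.795 (edgeR). Shmt2 was the single gene of the set called higher in KO1 (log2 fold change 0.44 ± 0.16 SE, edgeR adjusted p = 0.0800), a call that was lost without control replicate 1 or 2 or KO1 replicate 2 or 3, and Psph was called lower in KO2 (log2 fold change -0.68 ± 0.25 SE, edgeR adjusted p = 0.0845). Counts of Phgdh carry a limit, since 47.8% of the 50-base words of its transcripts recur in transcripts of other genes, and for Psph the share was 8.82%.

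Of the 8 transporters, 6 fell in KO, and their median on the log2 scale was -1.19. Slc7a11 (ENSMUSG00000027737, GRCm38 chr3:49892526-50443614, minus strand), the cystine-glutamate exchanger that feeds glutathione synthesis, was at 182 and 218 CPM in the control libraries, 43.2, 67.3 and 20.2 CPM in KO1 and 15.7, 9.60, 13.5 and 10.6 CPM in KO2. It fell 7.76-fold (log2 fold change -2.96 ± 0.61 SE, edgeR adjusted p = 0.0121). Slc1a4, a carrier of alanine, serine and cysteine, was at 154 and 151 CPM in the control libraries, 36.6, 55.5 and 28.9 CPM in KO1 and 23.5, 21.4, 21.5 and 33.4 CPM in KO2 and fell 4.83-fold (log2 fold change -2.27 ± 0.30 SE, edgeR adjusted p = 0.00221). In both genes every KO library lay far below the controls.

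Slc7a5 and Slc3a2 form the LAT1 exchanger for large neutral amino acids, leucine among them. Slc7a5 was at 828 and 1090 CPM in the control libraries, 407, 516 and 355 CPM in KO1 and 323, 409, 252 and 251 CPM in KO2 and fell 2.67-fold (log2 fold change -1.42 ± 0.25 SE, edgeR adjusted p = 0.00588). Slc3a2, the heavy chain that also carries the SLC7A11 protein, was at 561 and 682 CPM in the control libraries, 271, 389 and 230 CPM in KO1 and 206, 274, 170 and 177 CPM in KO2 and fell 2.53-fold (log2 fold change -1.34 ± 0.27 SE, edgeR adjusted p = 0.0102). The RNAs of both chains thus fell by similar factors. Slc7a1, a carrier of arginine and lysine, was at 613 and 446 CPM in the control libraries, 293, 287 and 200 CPM in KO1 and 223, 342, 232 and 222 CPM in KO2 and fell 2.06-fold (log2 fold change -1.04 ± 0.21 SE, edgeR adjusted p = 0.0101). Slc38a2, a carrier of small neutral amino acids that cells induce when starved of them, was at 620 and 608 CPM in the control libraries, 202, 353 and 299 CPM in KO1 and 439, 247, 315 and 317 CPM in KO2 and fell 1.98-fold (log2 fold change -0.98 ± 0.23 SE, edgeR adjusted p = 0.0189). KO1 and KO2 libraries overlapped for Slc7a1 and Slc38a2.

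The glutamine carrier Slc1a5 had a pooled log2 fold change of -0.32 (edgeR adjusted p = 0.31), and was called lower in KO2 (log2 fold change -0.50 ± 0.17 SE, edgeR adjusted p = 0.0641). Its value in KO1 was -0.11 ± 0.18 SE, and the difference between the clones did not pass its test (edgeR adjusted p = 0.131). Slc7a3, another carrier of cationic amino acids, was low, with means of 2.97 ± 0.615 CPM in control (SD, n = 2) and 1.58 ± 1.54 in KO (n = 7), and passed in no comparison.

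Vldlr (ENSMUSG00000024924, GRCm38 chr19:27216484-27254231, plus strand), a lipoprotein receptor, and Stc2, a secreted glycoprotein are both known ATF4 targets. Vldlr was at 36.9 and 48.0 CPM in the control libraries, 8.19, 9.19 and 1.27 CPM in KO1 and 0.223, 0.253, 0.0678 and 0 CPM in KO2. It was close to lost in KO2 (log2 fold change -8.43 ± 0.97 SE, edgeR adjusted p = 0.000985) and partly retained in KO1 (log2 fold change -2.77 ± 0.83 SE, edgeR adjusted p = 0.0388). The pooled value, 15.4-fold below control, missed the threshold (log2 fold change -3.95 ± 1.48 SE, edgeR adjusted p = 0.102). Stc2 was at 43.6 and 27.7 CPM in the control libraries, 3.94, 0.697 and 0 CPM in KO1 and 0.167, 2.27, 2.98 and 10.9 CPM in KO2, below both controls in every KO library. Its pooled fall of 11.8-fold passed (log2 fold change -3.57 ± 1.22 SE, edgeR adjusted p = 0.0768), as did KO1 (log2 fold change -4.49 ± 1.57 SE, edgeR adjusted p = 0.0663), while KO2 did not (log2 fold change -3.12 ± 1.35 SE, edgeR adjusted p = 0.125). KO2 replicate 4 stood above the other KO2 libraries.

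Of the 10 aminoacyl-tRNA synthetases, enzymes that charge each amino acid onto its tRNA, 7 fell in KO and the median log2 fold change was -0.93. This median was nearer to 0 than the -2.32 of the regulators. Sars was at 675 and 900 CPM in the control libraries, 358, 402 and 263 CPM in KO1 and 213, 263, 178 and 227 CPM in KO2 and fell 2.89-fold (log2 fold change -1.53 ± 0.26 SE, edgeR adjusted p = 0.00572). Yars was at 237 and 234 CPM in the control libraries, 114, 129 and 97.7 CPM in KO1 and 80.8, 108, 71.5 and 62.2 CPM in KO2 and fell 2.49-fold (log2 fold change -1.32 ± 0.24 SE, edgeR adjusted p = 0.00718). Aars was at 997 and 1290 CPM in the control libraries, 573, 658 and 488 CPM in KO1 and 444, 548, 398 and 287 CPM in KO2 and fell 2.36-fold (log2 fold change -1.24 ± 0.25 SE, edgeR adjusted p = 0.0109). All 3 lay below the controls in every KO library. Of the 50-base words of Aars, 13.8% recur in other transcripts, and of Iars 7.15%.

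Iars was at 515 and 497 CPM in the control libraries, 258, 305 and 249 CPM in KO1 and 218, 284, 212 and 273 CPM in KO2 and fell 1.97-fold (log2 fold change -0.98 ± 0.15 SE, edgeR adjusted p = 0.00377). Eprs, the fused glutamate and proline synthetase, was at 934 and 882 CPM in the control libraries, 507, 643 and 567 CPM in KO1 and 385, 342, 451 and 428 CPM in KO2 and fell 1.91-fold (log2 fold change -0.94 ± 0.21 SE, edgeR adjusted p = 0.0163). For Iars the log2 difference of KO2 from KO1 was -0.13 ± 0.15 SE and did not pass (edgeR adjusted p = 0.578), and for Eprs KO2 was lower (log2 fold change -0.51 ± 0.14 SE, edgeR adjusted p = 0.0423). Nars was at 690 and 704 CPM in the control libraries, 540, 540 and 419 CPM in KO1 and 261, 353, 271 and 265 CPM in KO2, with a pooled fall of 1.84-fold (log2 fold change -0.88 ± 0.29 SE, edgeR adjusted p = 0.0694). Tars was at 494 and 438 CPM in the control libraries, 352, 400 and 324 CPM in KO1 and 314, 256, 286 and 222 CPM in KO2, with a pooled fall of 1.51-fold (log2 fold change -0.60 ± 0.20 SE, edgeR adjusted p = 0.0698). KO2 replicate 2 was the highest KO2 library for Nars.

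Lars was at 347 and 325 CPM in the control libraries, 273, 270 and 215 CPM in KO1 and 97.3, 122, 147 and 112 CPM in KO2. Its KO libraries lay below both controls, yet the pooled test missed (log2 fold change -0.93 ± 0.37 SE, edgeR adjusted p = 0.124) and KO2 alone passed (log2 fold change -1.49 ± 0.18 SE, edgeR adjusted p = 0.00107). Wars and Gars were called in no comparison, with pooled log2 fold changes of -0.47 ± 0.22 and -0.13 ± 0.19 (SE). Gars was the single synthetase whose KO libraries overlapped the controls.

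Scaled to exon length, the highest control means were those of Ddit4 (641 CPM per kb), Slc7a5 (259), Atf4 (244) and Trib3 (242). In KO2 the highest means per kb were Gars (120), Shmt2 (116), Psat1 (105) and Phgdh (103), none of them called in KO2, while Ddit4 was at 54.2 and Trib3 at 5.24 CPM per kb.

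The clones were then compared with control separately, in 1 fit of 3 groups, and with each other. Both clones share the 2 control libraries, so their values against control are not independent and are given side by side. In KO1, 27 genes fell and 1 rose (median log2 fold change -1.01), where 15.7% of all genes were called lower and 15.9% higher. In KO2, 33 fell and none rose (median -1.62), where 15.0% of all genes were called lower and 16.5% higher, and none was higher at an unadjusted level of 0.05 in edgeR or by DESeq2. Both lists share 26 genes that were lower. The share of all genes tested that were called lower in both clones was not computed, so this count has no background beside it. The count dropped in both clones when either control library was left out, and by more in KO1 than in KO2. The shares of all genes called with a library left out were not computed.

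**Figure D3:**
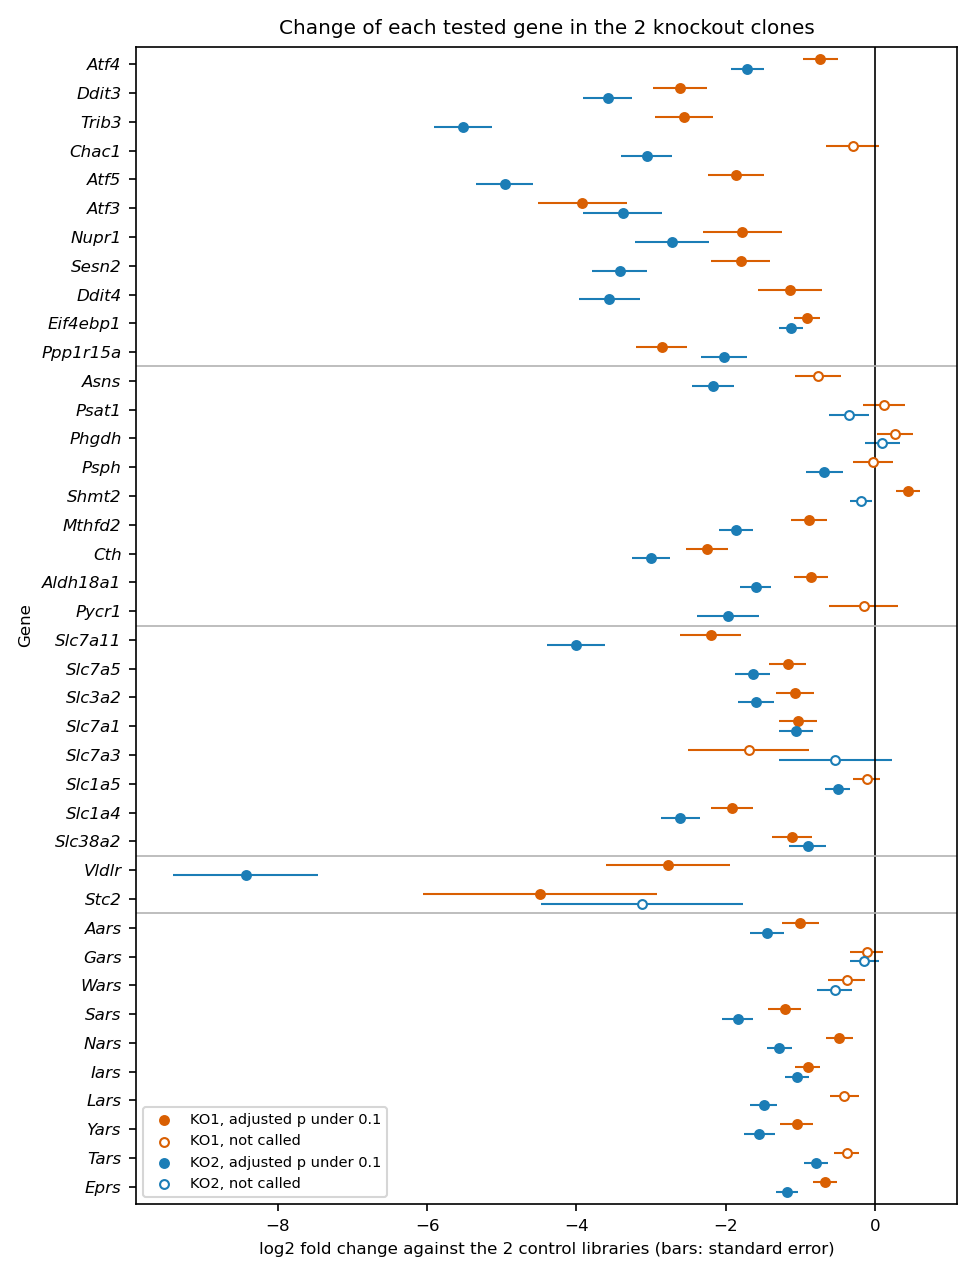
Log2 fold changes of the 40 tested genes in KO1 (orange) and KO2 (blue) against the same 2 control libraries, with standard errors as bars and filled points for an adjusted p under 0.1. KO2 reaches -8.43 for Vldlr, -5.52 for Trib3 and -4.96 for Atf5, where KO1 is at -2.77, -2.56 and -1.86, and both clones lie near 0 for Phgdh and Gars.

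Tested directly, KO2 was lower than KO1 for 22 of the 40 genes and higher for 1, with a median log2 difference of -0.63, where 9.43% of all genes tested were lower and 10.2% higher. Among the regulators 7 of 11 were lower in KO2, among the enzymes 7 of 9, among the transporters 2 of 8 and among the synthetases 5 of 10. The steepest differences were in Vldlr (log2 fold change -5.66 ± 0.88 SE, edgeR adjusted p = 0.00714), Atf5 (log2 fold change -3.10 ± 0.34 SE, edgeR adjusted p = 0.00207), Trib3 (log2 fold change -2.96 ± 0.34 SE, edgeR adjusted p = 0.00261) and Chac1 (log2 fold change -2.75 ± 0.32 SE, edgeR adjusted p = 0.00261). Ddit4 (log2 fold change -2.42 ± 0.37 SE, edgeR adjusted p = 0.00684), Pycr1 (log2 fold change -1.82 ± 0.39 SE, edgeR adjusted p = 0.0210) and Slc7a11 (log2 fold change -1.81 ± 0.35 SE, edgeR adjusted p = 0.0147) followed. Ppp1r15a was the single gene higher in KO2 (log2 fold change 0.84 ± 0.29 SE, edgeR adjusted p = 0.0887), and that call was lost when any 1 library other than KO2 replicates 2 and 3 was left out. Atf4 was itself lower in KO2 than in KO1 (log2 fold change -0.98 ± 0.20 SE, edgeR adjusted p = 0.0180). Leaving out KO1 replicate 2, which held the highest Atf4, Chac1 and Ddit4 of the KO libraries, brought the count of calls between the clones from 23 to 13.

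Genes around the set were described by lists that overlap it and each other in part. Their counts stand beside 10.7% of all tested genes called lower in KO and 11.9% called higher. Of 15 tested bZIP factors that pair with ATF4 or resemble it, 8 fell and none rose by edgeR (median -0.70), with 9 lower and 0 higher at an unadjusted level of 0.05. Cebpg, the partner C/EBP gamma, is 1 of the 8 and of the 9 and enters the median. These counts therefore rest in part on how the set was defined. Since the fall of Cebpg is part of that definition, its values are given as a description only. It was at 233 and 230 CPM in the control libraries, 65.8, 76.7 and 48.6 CPM in KO1 and 43.6, 41.8, 41.4 and 58.6 CPM in KO2, 4.31-fold lower in KO (log2 fold change -2.11 ± 0.22 SE). Jdp2, a repressor related to the JUN family, went from 86.0 ± 1.90 to 27.5 ± 16.3 CPM (log2 fold change -1.65 ± 0.48 SE, edgeR adjusted p = 0.0455). Cebpa fell from 1.79 ± 0.455 to 0.212 ± 0.250 CPM (log2 fold change -3.15 ± 0.80 SE, edgeR adjusted p = 0.0256). Of 29 tested further ATF4 targets, 16 fell and 1 rose (median -1.23). The steepest called were Gadd45a, a stress-induced regulator of growth arrest (211 ± 37.9 to 23.6 ± 13.7 CPM, log2 fold change -3.16 ± 0.46 SE, edgeR adjusted p = 0.00317), the alanine transaminase Gpt2 (286 ± 11.9 to 44.5 ± 35.4 CPM, log2 fold change -2.69 ± 0.62 SE, edgeR adjusted p = 0.0177) and the secreted factor Gdf15, which had at most 0.366 CPM in any library (log2 fold change -2.49 ± 0.73 SE, edgeR adjusted p = 0.0455).

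Of 17 eIF2 kinases and initiation factors, which act upstream of ATF4, 2 rose and 1 fell (median -0.06), shares close to those of all genes (11.9% higher, 10.7% lower). The eIF2 subunits Eif2s3x (log2 fold change 0.85 ± 0.29 SE, edgeR adjusted p = 0.0791) and Eif2s2 (log2 fold change -0.82 ± 0.23 SE, edgeR adjusted p = 0.0385) went opposite ways, and the exchange factor subunit Eif2b5 rose (log2 fold change 0.67 ± 0.21 SE, edgeR adjusted p = 0.0567). Of 15 genes of amino acid sensing by mTORC1, 1 fell, Sesn2, and none rose by edgeR (median -0.03), with 2 lower and 0 higher at an unadjusted level of 0.05. Results of DESeq2 and the other settings were not summarised for the lists outside the set.

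Synthetases outside the set gave no call of a fall in pooled KO by edgeR, with 1 cytosolic and 0 mitochondrial genes lower at an unadjusted level of 0.05. Of 10 other cytosolic synthetases 4 rose (median 0.24), among them Hars (53.7 ± 0.0262 to 149 ± 26.9 CPM, log2 fold change 1.47 ± 0.22 SE, edgeR adjusted p = 0.00328), Farsa (log2 fold change 0.94 ± 0.25 SE, edgeR adjusted p = 0.0332) and Kars (log2 fold change 0.72 ± 0.18 SE, edgeR adjusted p = 0.0262). In KO2 alone 2 of these 10 were called lower, Cars (log2 fold change -0.57 ± 0.19 SE, edgeR adjusted p = 0.0545) and Farsb (log2 fold change -0.48 ± 0.16 SE, edgeR adjusted p = 0.0579), and 4 higher, where 15.0% of all genes were lower and 16.5% higher, and in KO1 5 were higher. Of 17 mitochondrial synthetases 2 rose in pooled KO (median 0.47), Sars2 (log2 fold change 0.99 ± 0.25 SE, edgeR adjusted p = 0.0260) and Aars2 (log2 fold change 0.97 ± 0.36 SE, edgeR adjusted p = 0.0978), a share close to the 11.9% of all genes. In KO1 7 of the 17 were higher, where 15.9% of all genes were, and in KO2 2 were. Of 14 other amino acid transporters 3 fell and 1 rose (median -0.01). The glycine carrier Slc6a9 (log2 fold change -2.22 ± 0.45 SE, edgeR adjusted p = 0.0110) and Slc38a7 (log2 fold change -1.60 ± 0.22 SE, edgeR adjusted p = 0.00245) fell, and Slc38a10 rose (log2 fold change 1.08 ± 0.24 SE, edgeR adjusted p = 0.0163).

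Other metabolic and stress lists went both ways. Of 25 one-carbon and related enzymes 10 rose and 6 fell (median 0.43), with the thymidylate synthase Tyms up (log2 fold change 1.58 ± 0.16 SE, edgeR adjusted p = 0.00102) and the argininosuccinate synthase Ass1 down (log2 fold change -1.89 ± 0.38 SE, edgeR adjusted p = 0.0111) beside Gpt2. Of 12 other genes of the unfolded protein response 4 rose and 2 fell (median 0.38), with Sdf2l1 (log2 fold change 1.67 ± 0.45 SE, edgeR adjusted p = 0.0319) and Manf (log2 fold change 1.47 ± 0.26 SE, edgeR adjusted p = 0.00696) up and Herpud1 down (log2 fold change -1.35 ± 0.25 SE, edgeR adjusted p = 0.00776). Herpud1 is also in the list of further ATF4 targets. Of 9 NRF2 targets 3 rose and 2 fell (median 0.60). Gclm, a subunit of the rate-limiting enzyme of glutathione synthesis, rose (log2 fold change 1.50 ± 0.40 SE, edgeR adjusted p = 0.0305) while Osgin1 (log2 fold change -1.41 ± 0.32 SE, edgeR adjusted p = 0.0177) and Slc7a11 fell.

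**Figure D4:**
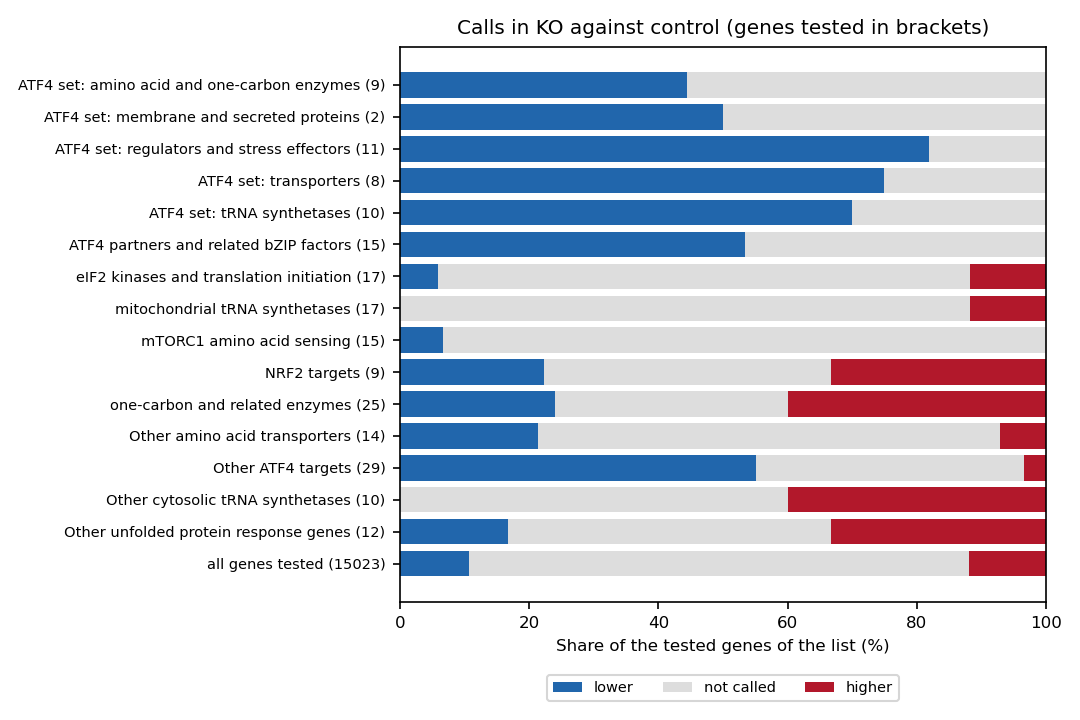
Share of the tested genes of each list called lower (blue), higher (red) or not called (grey) in KO against control, with the number tested in brackets. The regulators (9 of 11 lower), transporters (6 of 8) and synthetases of the set (7 of 10) stand beside 16 of 29 further ATF4 targets and 8 of 15 bZIP factors, and the last bar gives all 15023 genes. Among the 8 bZIP factors is Cebpg, whose fall the definition of the set states.

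The calls were also read against the promoter element. Of the 8 genes with TTGCATCA, 5 fell in pooled KO, 5 in KO1 and all 8 in KO2. Their median log2 fold changes were -1.75, -1.39 and -2.89. Of the 24 tested genes whose promoter lacked these letters, 18 fell in pooled KO, 18 in KO1 and 19 in KO2. Their medians were -1.33, -1.04 and -1.66. Of all genes tested, 10.7% were called lower in pooled KO, 15.7% in KO1 and 15.0% in KO2. A difference between genes with and without the element was not tested. The 8 genes with no promoter entry, of which 4 fell in pooled KO, are Eif4ebp1, Cth, Slc7a5, Slc7a3, Slc1a5, Wars, Nars and Lars.

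ChIRP-seq peaks of MaTAR25 RNA were read next. Each deposited list pools its replicates, so no value has a replicate error, and scores are compared only within a list. A peak was assigned to the gene of the nearest annotated transcript start. With the total probe pool in 4T1 cells, 32 of the 41 genes had a peak (78%), against 59.6% of the genes tested for expression. The share was 63.4% against 52.9% with the even probes, 65.9% against 52.4% with the odd probes and 75.6% against 58% in NDL cells. The even list holds no peak on chromosome 3, where Phgdh, Cth, Slc7a11 and Sars lie. The lists are long, with 61311 to 76806 peaks, and among the 1000 highest-scoring peaks of each list 1 or 2 of the genes remained, 2.44% to 4.88% of the set against 2.27% to 2.44% of the genes tested. At a score of at least 100 the share was 17.1% against 18.5% with the even probes, 31.7% against 23.4% with the odd probes, 36.6% against 26.1% with the total pool and 34.1% against 22.6% in NDL cells. The higher share of the set over all peaks was thus absent from the even list at that score. Among the 1000 highest-scoring peaks it was 2.44% against 2.44% with the total pool and 2.44% against 2.4% with the odd probes. There it was 2.44% against 2.27% in NDL cells and 4.88% against 2.27% with the even probes, from 1 or 2 genes. Gene length was not adjusted for.

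Across the lists 17 of the genes had a peak in all 4 and 7 in none, among the latter Ddit3, Sesn2, Ppp1r15a, Shmt2, Slc38a2 and Sars. The matching shares of all genes tested were not computed, so no excess or lack can be read from these counts. Phgdh, Cth, Slc7a11 and Sars, on chromosome 3, could not be among the 17, since the even list has no peak there. A peak within 1 kb of any annotated transcript start in all 4 lists was seen for 2 genes, Gars and Yars, again with no share of all genes computed. The 4 Gars peaks overlapped, but lay inside the gene (chr6:55047895-55048519 in the total list), which begins at 55038007. For Yars the odd peak (chr4:129197289-129198059) lay apart from the peak of the total list (chr4:129190421-129190920), which the even and NDL peaks overlapped. In the total pool of 4T1 cells 10 of the 41 genes (24.4%) had a peak within 1 kb of a start, against 13.5% of the genes tested. At a score of at least 100 this share was 2.44% against 2.17% with the even probes and 7.32% against 3.12% with the odd probes. It was 7.32% against 3.14% in NDL cells and 4.88% against 3.95%, 2 genes, in the 4T1 total list. Among the 1000 highest-scoring peaks of the 4T1 total list it was 0. The highest-scoring peak on the set in that list lay in an intron of Atf3 (chr1:191174833-191175457, score 543.9, rank 701 of 76806), and an NDL peak had the same ends (score 385, rank 1294 of 70329). The even list had an overlapping Atf3 peak (score 459.1, rank 296 of 64607), while the odd list had none on Atf3. The next lay in Gars (chr6:55047895-55048519, score 479.2, rank 1015). The third was an intergenic peak before Chac1 (chr2:119346559-119347183, score 429, rank 1379), at a signed distance of -4358 bases from its start, and the odd list had its best peak of the set overlapping it (score 1558.4, rank 208 of 61311). The even list had no peak there, its Chac1 peaks lying 11456 and 22496 bases past the start. The Atf3 and Chac1 peaks were therefore each seen with 1 of the 2 separate probe pools, and a Gars peak at this place with both. Of these 3 genes, Atf3 fell in both clones, Chac1 in KO2 and Gars in neither.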

How the data were processed

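Polyadenylated RNA of 9 libraries (2 control, 3 KO1, 4 KO2) was read single-end. The authors mapped reads to GRCm38 (mm10) with STAR and counted them with HTSeq on the GENCODE vM5 annotation. The deposited files hold these raw counts. The sources used here give neither strand setting nor versions. Reads outside genes, between 33.9% and 37.0% of each file, were left out, and the KO2 replicate 2 file lists every gene 3 times with the same count, used once. Symbols and positions come from GENCODE vM21, promoter sequences from RefSeq (GRCm38.p6, 33 of 41 genes matched).

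Counts were scaled by TMM, filtered with filterByExpr and tested by edgeR 4.0.16 quasi-likelihood fits in R 4.3.3 on all 15023 genes passing, with Benjamini-Hochberg adjustment and a threshold of 0.1. KO as 1 group was fitted against control, and the clones in a fit of 3 groups. Standard errors are the log2 fold change divided by the root of its F value. CPM use TMM library sizes. Scripts were tested on simulated data. Alternatives were DESeq2 1.42.0, RLE size factors, other filters, a threshold of 0.05, a replicate block and leaving out each library.

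The deposited ChIRP-seq lists give HOMER peak scores, called by the authors over pooled replicates against a Ppib pulldown after Bowtie2 mapping to mm10, and the distance in bases from each peak to the nearest GENCODE vM16 transcript start. How the score was scaled is not stated.

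The 41 genes, the lists and the tests were chosen with earlier results of these data known. Values in every library are given for Atf4, Ddit3, Trib3, Chac1 and Asns, for each gene called in KO, and for those called between clones with a log2 difference of at least 1. Other lists are given by counts with up to 3 called genes of largest change. Cebpg is given in every library because the definition of the set states its fall, so it is given with no test. It is still counted among the bZIP factors called lower.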

Additional observations from a re-analysis of the deposited data

Results flagged for a closer look

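Psph, Slc7a1 and Nars each had 1 KO2 library, replicate 2, apart from the other 3 by Dixon's test at the 95% level: 57.4 CPM for Psph, 342 CPM for Slc7a1 and 353 CPM for Nars. The test was run on 40 genes in the 4 KO2 libraries, and chance picks out about 1 in 20 groups.

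The log2 difference of KO2 from KO1 passed its own test (edgeR, adjusted p under 0.1) for 23 genes. Among the regulators it was -0.98 for Atf4, -0.97 for Ddit3, -2.96 for Trib3, -2.75 for Chac1, -3.10 for Atf5, -1.62 for Sesn2, -2.42 for Ddit4 and 0.84 for Ppp1r15a. Among the enzymes it was -1.41 for Asns, -0.65 for Psph, -0.63 for Shmt2, -0.99 for Mthfd2, -0.75 for Cth, -0.74 for Aldh18a1 and -1.82 for Pycr1. It was -1.81 for Slc7a11 and -0.69 for Slc1a4 among the transporters, and -5.66 for Vldlr. Among the synthetases it was -0.63 for Sars, -0.80 for Nars, -1.08 for Lars, -0.41 for Tars and -0.51 for Eprs. Each clone was read in its own libraries only, so a difference between clones and one between culture or library preparation of the clones cannot be told apart.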

How the results depend on the processing

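In KO against control, DESeq2 called 28 of the genes, RLE size factors 27, no filter 26, a minimum of 10 counts in every library 28, the fit of 3 groups 32 and a threshold of 0.05 22, all lower. Leaving out 1 library gave between 9 (without control replicate 2) and 29 calls, 11 without control replicate 1, and medians between -1.42 and -1.17. In KO1 the count was at most 30 and in KO2 at most 34, in both the fewest without a control library. Between the clones it was 13 (without KO1 replicate 2) to 24. The share of all genes called was not computed for any of these settings or left-out libraries. Why the count in pooled KO fell more without a control library than without a KO library was not tested. Replicate numbers did not pair the libraries (correlations of same-numbered deviations between -0.20 and 0.06). With a replicate block the calls in KO were 17, and signs turned for Psat1 (0.06) and Gars (0.04) in KO, Psph (0.02) and Gars (0.03) in KO1, Gars (0.06) in KO2, and Slc7a1 (0.04) and Gars (0.03) between clones, and the cause was not tested. None of these genes was called in those comparisons. Leaving out 1 library turned signs in KO1 for Psph (-0.25 to 0.20), Pycr1 (-0.39 to 0.13), Slc1a5 (-0.23 to 0.04) and Psat1 (-0.01 to 0.25), in KO2 for Phgdh (-0.07 to 0.31), and between clones for Slc7a1 (-0.20 to 0.06), Gars (-0.16 to 0.07) and Atf3 (-0.16 to 0.80). Genes with a ChIRP peak numbered 2, 1, 1 and 1 among the 1000 highest-scoring peaks and 7, 13, 15 and 14 at a score of at least 100, in the even, odd, total and NDL lists. By construction these settings hold fewer peaks.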
